A study of Mus musculus with 16 samples.

Results

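The genes described here are 10 cell-surface or membrane-associated markers of adipocyte progenitors in mouse fat, read in RNA-seq libraries of mature adipocytes and preadipocytes. They were chosen by name, as the rows of the deposited gene tables with the gene names Pdgfra, Ly6a, Cd34 and Thy1 (general progenitor markers), Dpp4, Pi16, Cd55 and Anxa3 (markers of early, uncommitted progenitors) and Icam1 and F3 (markers of committed cells). Each name matched 1 row, so the set holds 10 of 54532 genes: 4 general, 4 early and 2 committed markers. All 10 had enough counts to be tested in every comparison below.

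Libraries were made from gonadal white fat of female C57BL/6 mice, an inbred strain with no engineered allele named. Stress mice (MS) were taken from the dam daily over postnatal days 2 to 16 and weaned on day 17, and control mice (C) were left with the dam until weaning on day 21. The series title calls the data single-cell, but the tables give a single value per gene and library and hold no barcodes of cells, so all libraries were treated as bulk RNA. These 6 kinds of library were sequenced: 3 stress and 3 control mature adipocyte libraries and 4 stress and 4 control preadipocyte libraries, all from mice on a high-fat diet, and 1 stress and 1 control preadipocyte library from mice on a low-fat diet. The tissue was digested with collagenase and split by centrifugation, and magnetic sorting enriched the cells. What was sorted on, the ages at harvest and any pooling of animals are things the sources used here do not give, and it is therefore unknown whether any of the 10 proteins was itself used to select the cells. Nothing in the labels ties a library to an animal of its own, so each p-value describes only the spread among these samples.

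Fat grows in part by new adipocytes that form from stromal progenitors, which carry the receptor PDGFRα and the surface proteins Sca-1, CD34 and CD90. In single-cell studies of mouse subcutaneous fat, cells bearing DPP4 and PI16 in the fibrous sheath around the tissue gave rise to ICAM1-bearing committed preadipocytes, and then to fat cells. F3, the gene of tissue factor (CD142), marks a committed group in some of those studies and a group that restrains adipogenesis in others, so its class is less settled than that of Icam1. The visceral gonadal depot used here is organised differently from subcutaneous fat, and the early and committed labels are taken over from the other depot.

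Library totals ran from 14182130 to 23368821 counts, and 15344 to 20964 genes were detected in mature adipocyte libraries, against 23004 to 26053 in preadipocyte libraries. The fraction labels were checked against other markers. The 10 mature adipocyte markers such as Adipoq and Cfd summed to 5887 to 22897 FPKM in mature adipocyte libraries and 16.9 to 161 FPKM in the 10 preadipocyte libraries, and 8 fibroblast markers such as Dcn and Col3a1 summed to 169 to 485 FPKM in mature adipocyte libraries and 2861 to 6403 FPKM in preadipocyte libraries. FPKM is the deposited level per gene length and library depth, and it is the scale of every level given here. Control high-fat preadipocyte libraries 1 and 3 differed by more than counting noise but far less than other replicates: 21.4 percent of genes differed between them by a chi-square test of each gene at an unadjusted 0.05, against 50.5 to 79.5 percent in the other 17 pairs within groups. They were counted as 1 sample in means and tests, which gives n = 3 for that group and 15 samples in all. Control mature adipocyte libraries 1 and 3 held few rare transcripts, and the first result below is also given without them.

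The promoters of 2 early and 2 committed markers are shown first, because the classes are set against each other throughout. Of the 10 genes, 7 had an entry in the RefSeq promoter table (GRCm38.p6), which covers 250 bases before to 50 bases after the transcription start. The table had no entry for Ly6a, Thy1 or Anxa3. The 180 bases just before the start are printed 5′ to 3′ on the gene's own strand, with capitals marking each match to GGANNTTCC, the pattern bound by Rel-type factors of the NF-kB family. They lie at chr2:62412232-62412411 on the minus strand for Dpp4, chr17:29318702-29318881 on the plus strand for Pi16, chr9:21015760-21015939 on the plus strand for Icam1 and chr3:121723357-121723536 on the plus strand for F3.
Dpp4: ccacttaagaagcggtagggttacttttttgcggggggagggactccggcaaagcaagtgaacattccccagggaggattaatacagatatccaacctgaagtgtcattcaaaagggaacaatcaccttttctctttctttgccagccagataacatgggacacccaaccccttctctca
Pi16: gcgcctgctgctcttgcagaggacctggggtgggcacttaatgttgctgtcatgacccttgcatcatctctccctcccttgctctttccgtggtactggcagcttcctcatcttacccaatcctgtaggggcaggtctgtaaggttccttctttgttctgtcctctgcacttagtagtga
Icam1: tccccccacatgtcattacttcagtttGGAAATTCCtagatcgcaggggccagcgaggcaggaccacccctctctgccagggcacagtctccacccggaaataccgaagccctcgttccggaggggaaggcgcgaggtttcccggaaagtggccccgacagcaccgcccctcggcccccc
F3: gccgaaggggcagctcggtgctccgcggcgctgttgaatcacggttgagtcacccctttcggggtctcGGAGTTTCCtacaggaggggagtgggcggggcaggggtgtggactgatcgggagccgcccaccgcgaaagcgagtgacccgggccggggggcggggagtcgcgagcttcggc

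Both committed markers held a GGANNTTCC match, with its first base at position -153 from the start in Icam1 and at -112 in F3. None of the other 5 windows, those of Dpp4, Pi16, Cd55, Cd34 and Pdgfra, held one. The same pattern was present in 4.26 percent of the 32851 promoter windows of the table. The AP-1 pattern TGANTCA was found in F3 only among the 7, at -146 and -135, and in 7.81 percent of all windows. The GC box GGGCGG, present in 35.7 percent of all windows, was found in Icam1, F3 and Cd55, and CCAAT, present in 37.4 percent, was found in Pi16. TATAAA, present in 13.6 percent, was found in Dpp4 at -227, beyond the bases printed, and after the start in Icam1 and F3. Both strands were searched and no 2 matches overlapped in these promoters. A match is a run of letters and not a shown binding site.

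Mature adipocytes carried far less RNA of every marker than preadipocytes, by an extent that differed widely between the genes. On the high-fat diet, Dpp4, Pdgfra and Pi16 were 27.2-fold to 31.9-fold lower in mature adipocytes, while Ly6a, Anxa3, Icam1 and F3 were 3.09-fold to 3.99-fold lower. All 10 passed edgeR's quasi-likelihood test after Benjamini-Hochberg adjustment at 0.05, where 35.0 percent of the 16679 genes tested were called lower, 26.4 percent higher and 61.3 percent called in either direction. In bulk samples, fewer cells of a type and less RNA per cell cannot be told apart.

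Among the general markers, Pdgfra encodes the alpha receptor for platelet-derived growth factor and sits at chr5:75152292-75198215 on the plus strand of GRCm38 (ENSMUSG00000029231). Its level was 1.79, 1.44 and 2.37 FPKM in stress and 0.985, 3.98 and 2.25 FPKM in control mature adipocytes, against 60.1, 79.7, 60.8 and 48.9 FPKM in stress and 36.9, 72.6, 37.0 and 81.7 FPKM in control preadipocytes. The lowest preadipocyte library stood well above the highest mature adipocyte library. The log2 fold change was -4.87 ± 0.35 (SE), a 29.2-fold lower level (adjusted p = 6.20e-08 by edgeR).

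Ly6a, the gene of the anchored surface protein Sca-1 (chr15:74994877-74998031, minus strand, ENSMUSG00000075602), was the most abundant of the 10 per length in both fractions. It was read at 63.0, 135 and 176 FPKM in stress and 44.5, 78.4 and 132 FPKM in control mature adipocytes, against 359, 443, 383 and 269.7 FPKM in stress and 264, 312, 257 and 276 FPKM in control preadipocytes. The fractions did not overlap, yet mature adipocytes kept a sizeable level. Its log2 fold change was -1.63 ± 0.26, the smallest of the 10 (3.09-fold lower, adjusted p = 8.96e-05 by edgeR).

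Cd34 encodes a sialomucin found on stromal progenitors, blood stem cells and vessels (chr1:194938819-194961279, plus strand, ENSMUSG00000016494). Its level was 6.96, 6.82 and 16.5 FPKM in stress and 4.73, 9.64 and 17.0 FPKM in control mature adipocytes, against 90.5, 129, 60.1 and 60.0 FPKM in stress and 75.4, 129, 72.6 and 127 FPKM in control preadipocytes. Preadipocyte libraries were spread widely in both treatments, and all were far above the mature adipocytes. This gave Cd34 a log2 fold change of -3.20 ± 0.34 (9.22-fold lower, adjusted p = 1.96e-06 by edgeR).

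Thy1, the gene of the anchored glycoprotein CD90 (chr9:44043384-44048579, plus strand, ENSMUSG00000032011), was read at 2.98, 3.28 and 5.42 FPKM in stress and 3.12, 5.61 and 7.18 FPKM in control mature adipocytes. In preadipocytes it was read at 60.7, 90.3, 44.8 and 53.6 FPKM in stress and 45.2, 68.2, 44.1 and 51.6 FPKM in control libraries. Every mature adipocyte library was far below every preadipocyte library. For Thy1 the log2 fold change was -3.68 ± 0.26 (12.9-fold lower, adjusted p = 6.17e-08 by edgeR).

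Among the early markers, Dpp4 encodes a membrane-bound serine peptidase that trims peptide hormones and chemokines (chr2:62330073-62412231, minus strand, ENSMUSG00000035000). It was close to 1 FPKM in every mature adipocyte library: 0.887, 1.14 and 1.14 FPKM in stress and 1.44, 1.199 and 0.919 FPKM in control libraries, against 38.5, 52.5, 21.2 and 19.6 FPKM in stress and 32.8, 53.2, 34.3 and 35.1 FPKM in control preadipocytes. It was the lowest of the 10 per length in mature adipocytes and also the most even across them, with a coefficient of variation of 18.1 percent over 6 libraries. Its log2 fold change of -5.00 ± 0.27 was the largest of the set (31.9-fold lower, adjusted p = 8.27e-09 by edgeR).

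Pi16 encodes a peptidase inhibitor of the CAP family, a marker shared by fibroblast progenitors of many mouse tissues (chr17:29318877-29329413, plus strand, ENSMUSG00000024011). Its level was 3.03, 6.63 and 5.58 FPKM in stress and 12.9, 4.51 and 17.1 FPKM in control mature adipocytes, against 171, 393, 121 and 149 FPKM in stress and 187, 199, 182 and 213 FPKM in control preadipocytes. Control preadipocytes were tightly grouped, whereas stress preadipocyte library 2 stood apart at the top. In log2 terms Pi16 changed by -4.76 ± 0.41 (27.2-fold lower, adjusted p = 2.65e-07 by edgeR).

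Cd55 encodes decay accelerating factor, which protects cells from complement (chr1:130439027-130462744, minus strand, ENSMUSG00000026399). It was read at 9.96, 16.8 and 28.8 FPKM in stress and 15.8, 8.85 and 9.74 FPKM in control mature adipocytes, against 118, 176, 63.0 and 47.6 FPKM in stress and 104, 157, 102 and 124 FPKM in control preadipocytes. Stress preadipocyte libraries 3 and 4 were the lowest of that fraction. The log2 fold change was -2.90 ± 0.36 (7.44-fold lower, adjusted p = 1.01e-05 by edgeR). The genome holds a close copy, Cd55b, and reads shared by the copies may have been split or dropped, so the Cd55 level is uncertain to that extent.

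Anxa3 encodes annexin A3, a calcium-dependent membrane-binding protein (chr5:96793339-96845966, plus strand, ENSMUSG00000029484). It was read at 13.8, 9.66 and 21.3 FPKM in stress and 12.6, 16.5 and 15.1 FPKM in control mature adipocytes, against 47.5, 75.5, 38.0 and 39.5 FPKM in stress and 53.0, 47.8, 49.8 and 63.3 FPKM in control preadipocytes. It was the early marker with the smallest difference. Its log2 fold change was -1.78 ± 0.22 (3.44-fold lower, adjusted p = 6.94e-06 by edgeR), a size close to those of Ly6a and of the committed markers.

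Of the committed markers, Icam1 encodes the adhesion molecule bound by the beta-2 integrins of leukocytes (chr9:21015985-21028817, plus strand, ENSMUSG00000037405). Its level was 6.02, 54.5 and 30.3 FPKM in stress and 13.0, 58.6 and 59.7 FPKM in control mature adipocytes, against 177, 187, 142 and 66.3 FPKM in stress and 111, 143, 113 and 100.4 FPKM in control preadipocytes. Mature adipocyte libraries were widely scattered, with a coefficient of variation of 64.7 percent, and their highest values came close to the lowest preadipocyte library. The log2 fold change was -1.85 ± 0.46 (3.60-fold lower, adjusted p = 0.00309 by edgeR). With control libraries alone it was -1.39 ± 0.51 and the call was lost (adjusted p = 0.0612 by edgeR), while the range over all 25 alternatives was -2.21 to -1.39.

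F3 encodes tissue factor, the membrane receptor for coagulation factor VII (chr3:121723537-121735048, plus strand, ENSMUSG00000028128). It was read at 10.2, 14.9 and 6.88 FPKM in stress and 23.7, 7.05 and 16.7 FPKM in control mature adipocytes, against 72.3, 69.8, 27.0 and 24.8 FPKM in stress and 42.8, 95.9, 40.2 and 29.6 FPKM in control preadipocytes. The fractions only just failed to overlap, since the highest mature adipocyte library lay just under the lowest preadipocyte library. For F3 the log2 fold change was -2.00 ± 0.37 (3.99-fold lower, adjusted p = 3.00e-04 by edgeR).

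**Figure D1:**
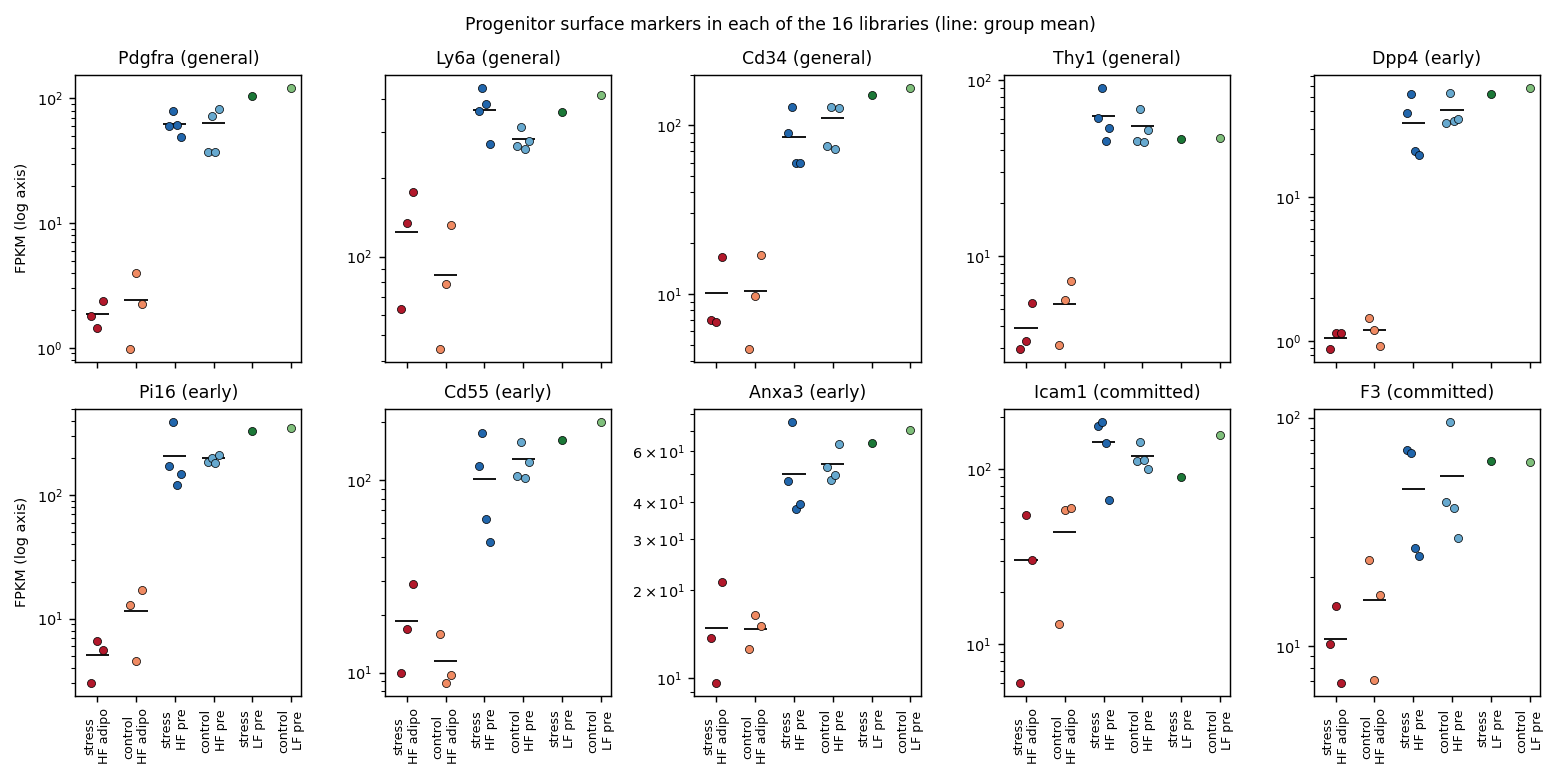
FPKM of each marker (log axis, scaled separately for each gene) in all 16 libraries, by group, with HF and LF for the diets, adipo for mature adipocytes and pre for preadipocytes; horizontal lines are group means, with control high-fat preadipocyte libraries 1 and 3 averaged first. In all 10 panels the 6 mature adipocyte libraries lie below the 10 preadipocyte libraries, by the widest margin for Dpp4 and the narrowest for F3.

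For all 10 genes, every mature adipocyte sample was below every high-fat preadipocyte sample, and this held for 22.0 percent of the 14592 genes with a mean of at least 1 CPM (counts scaled to library size). The median log2 fold change was -3.83 over the 4 early markers, -3.44 over the 4 general markers and -1.92 over the 2 committed markers, beside -0.25 over all genes tested. Without the low-complexity control adipocyte libraries 1 and 3, a choice made after seeing the data, all 10 were still called lower. Beside this, 12 endothelial markers summed to 218 to 849 FPKM in mature adipocytes and 51.3 to 247 FPKM in high-fat preadipocytes, and 10 of them were called higher and 1 (Tek) lower in mature adipocytes. Endothelial cells are known to carry Ly6a, Cd34 and Icam1, and the part of these cells in the levels of those genes was not tested. The 12 macrophage markers summed to 1279 to 3719 FPKM in mature adipocytes and 772 to 4594 FPKM in high-fat preadipocytes, with 1 of 12 called lower and none higher. The 10 genes of the tissue dissociation response, such as Fos and Jun, summed to 1181 to 1919 FPKM in mature adipocytes and 2799 to 4513 FPKM in high-fat preadipocytes, with 8 called lower and 1 higher, and their part was not tested either. Mesothelial markers, of the cells that line the outside of the gonadal depot, were called lower in 11 of 11 genes, with a median of -3.26, Wt1 at -4.80 ± 0.40 and Muc16 at -5.04 ± 0.84. They summed to 12.6 to 93.3 FPKM in mature adipocytes and 37.7 to 619 FPKM in high-fat preadipocytes. T and NK cell markers were called lower in 7 and higher in 1 of 10, B cell markers lower in 5 of 7 and mural cell markers higher in 5 of 10, and the part of these cells was not tested.

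The contrast of early with committed markers was taken in each library as the mean log2(FPKM + 0.1) of Dpp4, Pi16, Cd55 and Anxa3 minus that of Icam1 and F3. It was -0.80, -2.24 and -0.84 in stress and -1.14, -1.91 and -2.15 in control mature adipocytes, against -0.54, 0.17, -0.31 and 0.26 in stress and 0.14, -0.31, 0.16 and 0.68 in control preadipocytes on the high-fat diet. All 6 mature adipocyte libraries were below all preadipocyte libraries, that is, early markers were the further down of the classes there. With the stress and control group means averaged, mature adipocytes (6 samples) were 1.55 log2 units below high-fat preadipocytes (7 samples). The early level differed by -3.59 and the committed level by -2.05, and the pooled SD of the contrast within groups was 0.56. The gap depended on which early marker was counted: it was -2.14 without Anxa3, and -1.13 without Dpp4.

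**Figure D2:**
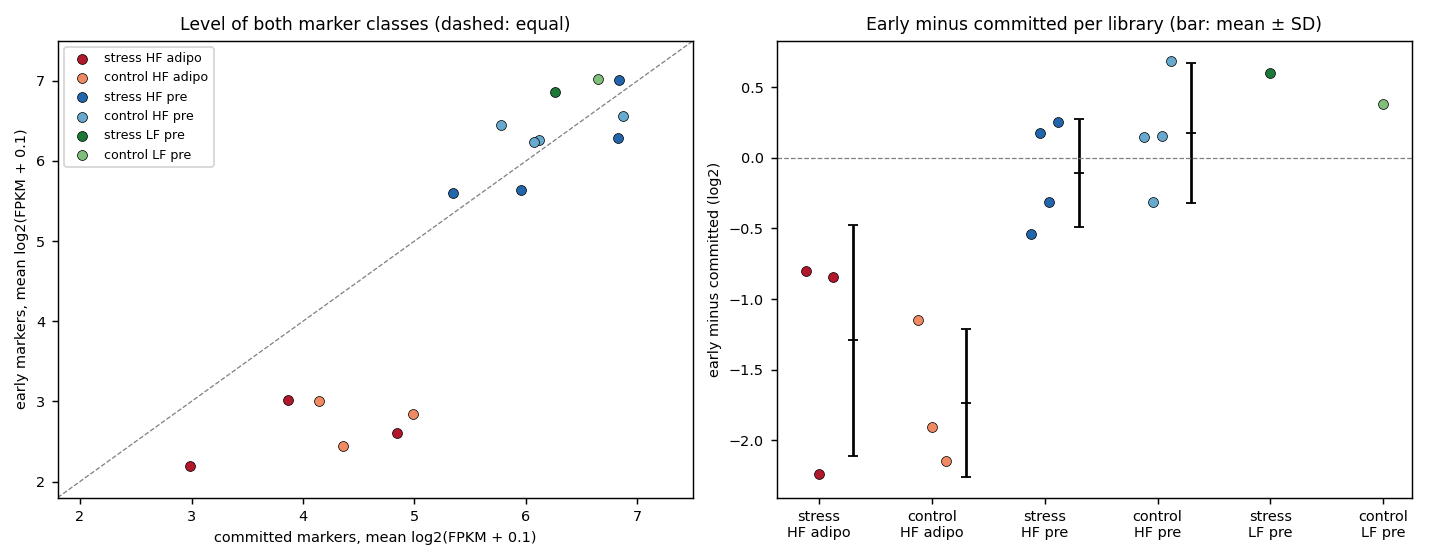
Left, mean log2(FPKM + 0.1) of the 4 early markers against that of the 2 committed markers, 1 point per library, with a dashed line where they are equal. Right, early minus committed per library, with bars for mean ± SD of groups with several samples (control high-fat preadipocyte libraries 1 and 3 averaged). All 6 mature adipocyte libraries lie below the line, at -2.24 to -0.80, and the 10 preadipocyte libraries lie on both sides of it, at -0.54 to 0.68.

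Other genes of these progenitors were read from lists. In the list of genes of interstitial (DPP4-positive) progenitors, 20 of 20 fell in mature adipocytes, with a median log2 fold change of -3.87. Fbn1, which encodes the microfibril protein fibrillin-1, fell by 5.62 on the log2 scale, Opcml, a neural cell adhesion gene, fell by 5.42 and Mfap5, another microfibril gene, fell by 4.74. The committed preadipocyte list was split, with 8 higher and 10 lower of 20 and a median of -0.53. Its members of largest change were Car3, a carbonic anhydrase abundant in fat cells, at 6.21 and the fatty acid carrier Fabp4 at 4.77. The adipogenic transcription factor Cebpa followed at 3.62, and fat cells themselves express these genes. Of the 10 called lower, Bgn at -2.84 ± 0.27, Ggt5 at -2.61 ± 0.27 and Cxcl14 at -2.42 ± 0.27 changed the most. Apoe at 0.69 ± 0.33 (adjusted p = 0.0843 by edgeR) and Sdc1 at -0.29 ± 0.40 (adjusted p = 0.553 by edgeR) did not pass. The background for these counts is the 35.0 percent called lower and 26.4 percent called higher.

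Among 6 genes of F3-marked stromal cells, 4 fell and 1 rose in mature adipocytes. Vit fell by 4.55, the TGF-beta family member Gdf10 fell by 4.23 and Clec11a fell by 3.80 on the log2 scale, while the homeobox gene Meox2 rose by 1.56, and the cholesterol exporter Abcg1, at 0.94 ± 0.46, did not pass (adjusted p = 0.0886 by edgeR). Of 12 other stromal surface antigens, 6 fell and 1 rose. Ngfr, the low-affinity nerve growth factor receptor, fell by 2.92, the second platelet-derived growth factor receptor gene Pdgfrb fell by 2.35 and Cd24a fell by 1.65, while Eng (0.73 ± 0.35, adjusted p = 0.0838 by edgeR) and Ly6c1 (-0.45 ± 0.29, adjusted p = 0.194 by edgeR) did not pass.

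The list of ligands and partners of the 10 proteins showed 3 higher and 9 lower of 19. Cd59a, which like Cd55 guards cells from complement, was 5.03 ± 0.31 log2 units higher in mature adipocytes, opposite in direction to Cd55. The integrin gene Itgb3 fell by 4.22 on the log2 scale. Itgam, which encodes an integrin chain that binds ICAM1, was at -0.74 ± 0.48 (adjusted p = 0.197 by edgeR) and F7, the ligand of tissue factor, at 0.50 ± 0.65 (adjusted p = 0.528 by edgeR), and neither passed.

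Ly6a had the highest level per length of the 10 in each of the 6 kinds of library. In the 6 mature adipocyte samples Ly6a averaged 105 ± 50.6 FPKM (SD) and Icam1 37.0 ± 24.0 FPKM, and Cd55, Anxa3, F3, Cd34, Pi16, Thy1, Pdgfra and Dpp4 followed in that order, with Dpp4 at 1.12 ± 0.203 FPKM. In the 7 high-fat preadipocyte samples Ly6a averaged 329 ± 68.5 FPKM and Pi16 204 ± 88.8 FPKM, followed by Icam1 at 133 ± 42.8, Cd55 at 113 ± 46.5 and Cd34 at 95.7 ± 32.2 FPKM. Pdgfra at 63.0 ± 16.4, Thy1 at 59.1 ± 16.1, Anxa3 at 51.8 ± 13.4, F3 at 51.6 ± 27.8 and Dpp4 at 36.2 ± 13.4 FPKM made up the lower part of the order. In both fractions the ranges of every pair of neighbours in the order overlapped. Pi16 thus ranked 7 of 10 in mature adipocytes and 2 of 10 in preadipocytes, and Icam1 ranked 2 in mature adipocytes and 3 in preadipocytes.

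Early life stress was compared with control in the preadipocytes, the question the series was built around. No marker passed the test. By edgeR 0 of 17129 genes were called (0.0 percent), with 496 at an unadjusted p under 0.05 and no adjusted p below 0.973. DESeq2 called 5 genes, none of them a marker, and limma called 0. The stress and control ranges overlapped for all 10 markers.

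Ly6a had the largest positive value in stress preadipocytes, 364 ± 72.0 FPKM (n = 4) against 283 ± 26.4 FPKM (n = 3) in control preadipocytes, a log2 fold change of 0.35 ± 0.17 (adjusted p = 0.973 by edgeR). Cd34 had the largest negative one, 85.0 ± 32.9 FPKM in stress against 109.9 ± 31.1 FPKM in control preadipocytes (-0.39 ± 0.30). Of the early markers, Cd55 was at -0.37 ± 0.40, Dpp4 at -0.32 ± 0.34, Anxa3 at -0.13 ± 0.23 and Pi16 at 0.03 ± 0.36. Icam1 was at 0.25 ± 0.32 and F3 at -0.22 ± 0.50, Thy1 at 0.17 ± 0.23 and Pdgfra at -0.04 ± 0.27. The early minus committed contrast averaged -0.11 ± 0.38 (n = 4) in stress and 0.17 ± 0.50 (n = 3) in control preadipocytes, a difference of -0.28 beside a pooled SD of 0.43. Leaving out 1 library at a time moved this difference between -0.52 without control library 2 and -0.026 without control library 4, and it was -0.14 without stress library 1. It was -0.092 without Icam1 and -0.47 without F3. Of the interstitial progenitor list 16 of 20 had negative log2 fold changes for stress (median -0.17), with none called. Of the committed preadipocyte list 14 of 20 had positive ones (median 0.31), also with none called.

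Libraries within the stress group differed more than the groups did. Stress preadipocyte library 2 was highest of the stress libraries in Pdgfra, Ly6a, Cd34, Thy1, Icam1 and all 4 early markers, and libraries 3 and 4 were lowest in Dpp4, Pi16, Cd55, Anxa3 and F3. The coefficient of variation of Pi16 was 59.9 percent in stress and 7.13 percent in control preadipocytes, and that of Cd55 was 57.7 percent in stress and 21.1 percent in control preadipocytes. Beside this, 12 macrophage markers summed to 1822, 772, 3803 and 4594 FPKM in stress libraries 1 to 4, against 2655, 910, 2559 and 1985 FPKM in the control libraries, with no marker at 0. The libraries with the most macrophage RNA were thus the stress libraries lowest in early markers, and the part of macrophage RNA in those levels was not tested. Library 2 of each treatment had the lowest macrophage sum of its group. The 8 fibroblast markers summed to 5073 and 5101 FPKM in stress libraries 3 and 4, within the 2861 to 6403 FPKM of the fraction. Between stress and control preadipocytes, with no gene called, all 12 endothelial (median -1.16), 11 mesothelial (-1.01), 7 B cell (-1.22) and 10 dissociation response genes (-0.33) had negative log2 fold changes. Macrophage markers went the other way, positive in 11 of 12 (median 0.70), as did neutrophil markers in 5 of the 6 tested (0.50). Mural markers were negative in 7 of 10 (-0.26) and T and NK markers in 8 of 10 (-0.32). Endothelial sums were 51.3 to 121 FPKM in stress and 102 to 247 FPKM in control libraries, and mesothelial sums 37.7 to 236 FPKM in stress and 66.2 to 619 FPKM in control libraries. The near-identical control libraries 1 and 3 held the highest mesothelial sums, 619 and 618 FPKM, and 7 urothelial and basal epithelial markers summed to 460 and 457 FPKM there, against 0.377 to 6.42 FPKM in the stress and 1.57 and 2.33 FPKM in the other control libraries. The part of these cells in the marker values was not tested.

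**Figure D3:**
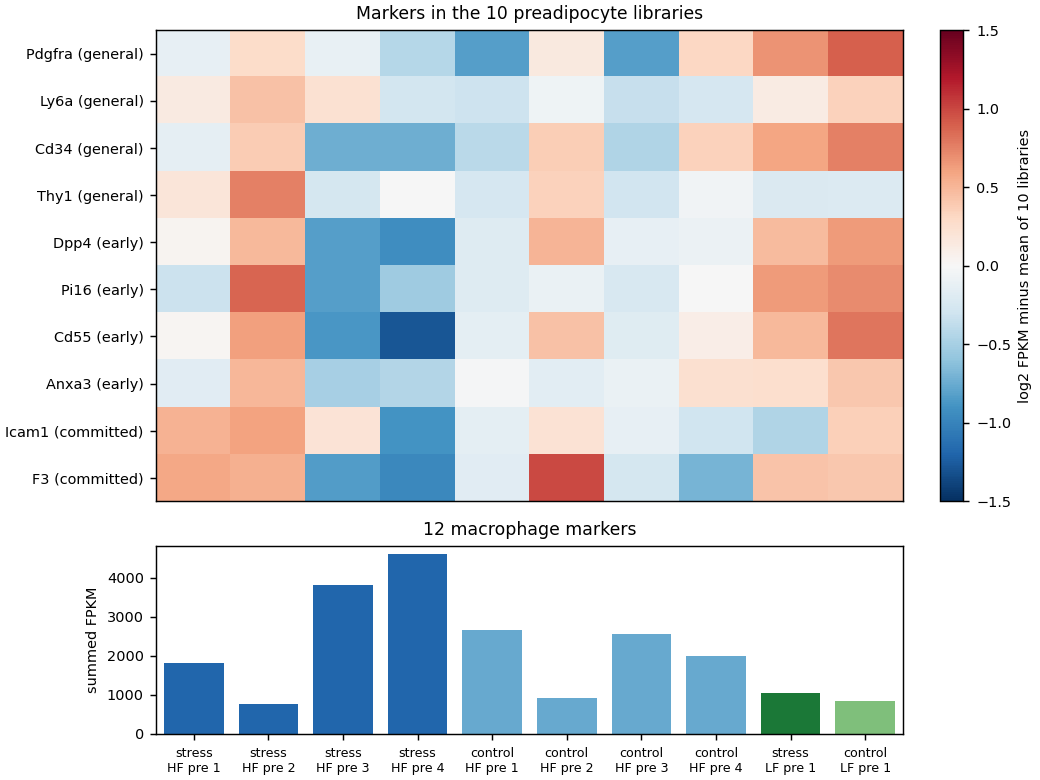
Top, log2 FPKM of each marker in the 10 preadipocyte libraries minus its mean over them (colour, red higher and blue lower, limits 1.5 either way). Bottom, summed FPKM of 12 macrophage markers in the same libraries. Stress libraries 3 and 4, at 3803 and 4594 FPKM, are the lowest of the 10 in each early marker. Some other libraries are also below the mean in early markers. The low-fat libraries on the right are red in Pdgfra, Cd34 and the early markers.

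In mature adipocytes, stress and control libraries overlapped for all 10 markers as well. By edgeR 0 of 14485 genes were called (0.0 percent), with 417 at an unadjusted p under 0.05 and no adjusted p below 0.9996. DESeq2 called 19 genes, none of them a marker, and limma called 0. Pi16 had the largest difference, 5.08 ± 1.85 FPKM in stress against 11.5 ± 6.40 FPKM in control mature adipocytes (n = 3 each). Its log2 fold change was -1.13 ± 0.47 (adjusted p = 0.9996 by edgeR), and its ranges overlapped. The higher control values were 12.9 and 17.1 FPKM in the low-complexity libraries 1 and 3, with library 2 at 4.51 FPKM. Urothelial and basal epithelial markers summed to 135 and 66.5 FPKM there, against 0.35 to 1.72 FPKM in the other mature adipocyte libraries. Mesothelial sums were 93.3 and 60.5 FPKM there, against 12.6 to 21.1 FPKM in the others. The part of these cells in the Pi16 values was not tested. Cd55 was at 18.5 ± 9.56 FPKM in stress and 11.5 ± 3.81 FPKM in control mature adipocytes (0.74 ± 0.42). The early minus committed contrast averaged -1.29 ± 0.82 in stress and -1.73 ± 0.52 in control mature adipocytes, a difference of 0.44 against a pooled SD of 0.69. Leaving out 1 library gave 0.19, 0.91 and 0.22 without stress library 1, 2 or 3. It gave 0.74, 0.35 and 0.23 without control library 1, 2 or 3. Without both control libraries 1 and 3, a choice made after seeing the data, the difference was 0.62. In this comparison 8 of 8 fibroblast (median -0.62) and 11 of 12 macrophage markers (median -0.41) had negative log2 fold changes, with none called. Endothelial markers were positive in 8 of 12 (median 0.23), and the part of these cells was not tested.

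The difference of the stress effect between mature adipocytes and preadipocytes was itself tested as an interaction. It was called for 0 of 17948 genes by edgeR (0.0 percent), with 873 at an unadjusted p under 0.05 and a smallest adjusted p of 0.934, for 2 genes by DESeq2 and for none by limma. Among the markers the largest estimates were -1.17 ± 0.66 log2 units for Pi16 and 1.10 ± 0.64 for Cd55 (adjusted p = 0.934 by edgeR for each). The SE of these estimates ran up to 0.89, for Icam1, so differences of that order were not detectable with these libraries.

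**Figure D4:**
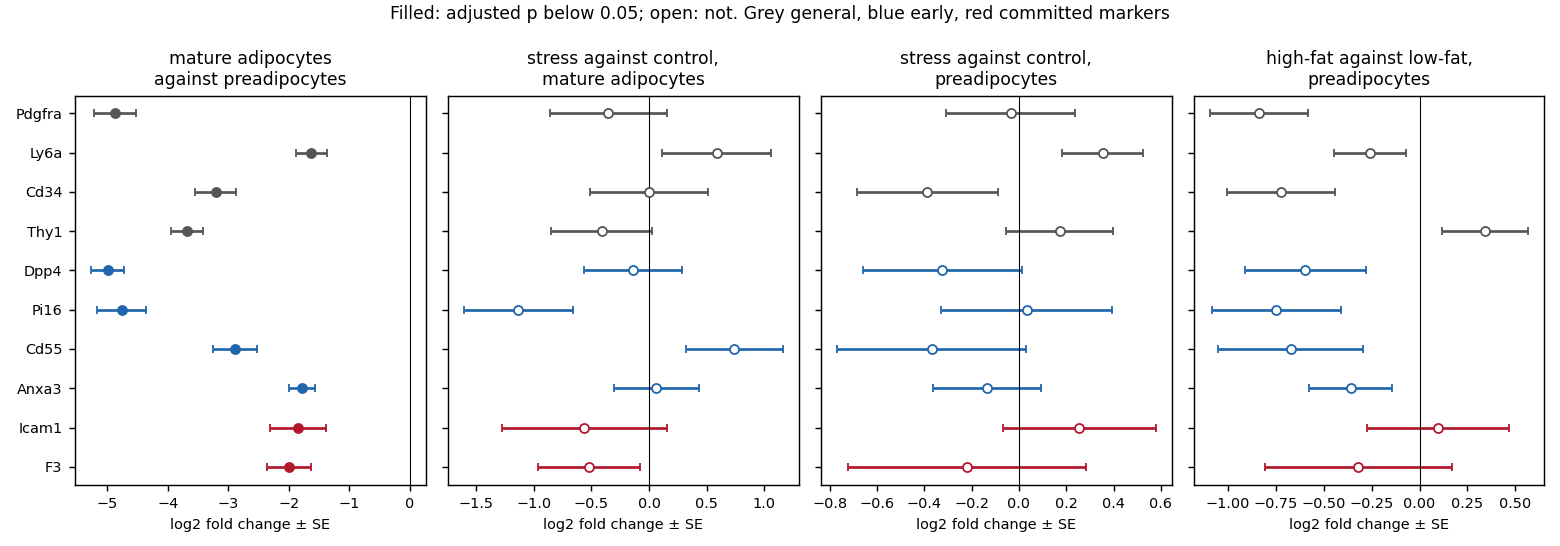
Log2 fold change ± SE from edgeR of each marker in 4 comparisons, with a separate x axis for each (general markers grey, early blue, committed red; filled points have an adjusted p below 0.05). All 10 points are filled in the comparison of mature adipocytes with preadipocytes, from -5.00 to -1.63, and all are open in both stress comparisons and in the diet comparison.

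Preadipocytes of the high-fat diet were compared with the 2 low-fat libraries. All 4 early markers and 3 of the 4 general markers had lower estimates on the high-fat diet, and no marker passed the test. Pdgfra ranged from 37.0 to 81.7 FPKM over 7 high-fat samples, with a median of 60.8 FPKM, against 105 FPKM in the stress and 122 FPKM in the control low-fat library. Cd34 ranged from 60.0 to 129 FPKM with a median of 90.5 FPKM on the high-fat diet, against 150.5 and 168 FPKM in the stress and control low-fat libraries. For these 2 of 10 markers every high-fat sample lay below both low-fat libraries, as for 10.7 percent of 14933 genes, and for no marker did every high-fat sample lie above both, as for 7.94 percent of genes.

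The log2 fold change was -0.84 ± 0.26 for Pdgfra (adjusted p = 0.320 by edgeR) and -0.72 ± 0.28 for Cd34 (adjusted p = 0.356 by edgeR). All 4 early markers had negative values, at -0.75 ± 0.34 for Pi16, -0.67 ± 0.38 for Cd55, -0.60 ± 0.32 for Dpp4 and -0.36 ± 0.22 for Anxa3, with a median of -0.63 beside 0.02 over all genes. Dpp4 had 52.1 and 58.2 FPKM and Pi16 333 and 351 FPKM in the stress and control low-fat libraries, where the highest high-fat samples were at 53.2 FPKM for Dpp4 and 393 FPKM for Pi16. Icam1 at 0.09 ± 0.37, F3 at -0.32 ± 0.49, Ly6a at -0.26 ± 0.19 and Thy1 at 0.34 ± 0.23 were nearer to 0 or positive. By edgeR 0 of 18468 genes were called (0.0 percent), with 2360 at an unadjusted p under 0.05 and a smallest adjusted p of 0.204. DESeq2 called 325 genes, none of them a marker, and limma called 0 with a pseudocount of 1 and 1 with a pseudocount of 0.1.

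The wider lists leaned apart in the same comparison, as they did for stress in high-fat preadipocytes, with no gene of them called. Of the interstitial progenitor list 18 of 20 had negative values (median -0.55), and of the committed preadipocyte list 16 of 20 had positive values (median 0.50). Smpd3, a sphingomyelinase gene, had -0.95 ± 0.17 (adjusted p = 0.320 by edgeR), the smallest unadjusted p of either list and singled out after its values were seen. The early minus committed contrast was 0.03 on the high-fat diet, taken as the mean of the stress and control group means (7 samples). It was 0.49 over the low-fat libraries (0.60 stress, 0.38 control), a difference of -0.46 beside a pooled SD of 0.43. This difference was -0.18 without Icam1 and -0.73 without F3. Markers of other cells were set beside these values, with none called: 12 macrophage markers, 11 of them with positive log2 fold changes and none at 0, summed to 772 to 4594 FPKM on the high-fat diet and 836 to 1052 FPKM on the low-fat diet. The 10 dissociation response genes all had negative log2 fold changes and summed to 2799 to 4513 FPKM on the high-fat diet and 5379 to 5613 FPKM on the low-fat diet. The 12 endothelial markers, all with negative log2 fold changes, summed to 51.3 to 247 FPKM on the high-fat and 99.7 to 195 FPKM on the low-fat diet. Of the 10 mature adipocyte markers 9 had positive log2 fold changes, with a median of 1.03, and they summed to 16.9 to 161 FPKM on the high-fat and 32.8 to 56.6 FPKM on the low-fat diet. The committed preadipocyte list itself holds genes that fat cells express. Mesothelial markers were positive in 10 of 11 genes (median 1.35) and B cell markers in 7 of 7 (median 0.63). Neutrophil markers were positive in 6 of the 6 that were tested of 8 (median 1.02). Mural markers were positive in 9 of 10 (median 0.39) and T and NK markers in 7 of 10 (median 0.30). Urothelial and basal epithelial markers were negative in 6 of 7 (median -3.875) and summed to 91.8 FPKM in the stress and 16.8 FPKM in the control low-fat library. Their high-fat sums were 460 and 457 FPKM in control libraries 1 and 3 and 0.377 to 6.42 FPKM in the others. The low-fat sums lay within the high-fat range for each of these lists but the dissociation response. The part of these in the marker values was not tested, and with 1 low-fat library of each treatment the spread on that diet is that of 2 libraries.

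Within the low-fat libraries, which allow no test, stress and control levels were near each other for 9 of 10 markers, at log2 ratios of stress over control from -0.31 to 0.03. Icam1 was the exception, at 90.0 FPKM in the stress and 158 FPKM in the control library (-0.81). The high-fat libraries gave Icam1 a value of the other sign, with overlapping ranges.

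The markers did not vary as 1 block over the 9 preadipocyte samples. Likeness was measured as the SD over samples of the log2 CPM ratio of 2 genes, where a small value means that the genes kept a constant ratio, as a description with no test. Over the 9 preadipocyte samples the tightest pair was Dpp4 and Cd55 at 0.16, followed by Cd34 and Dpp4 at 0.22 and Cd34 and Cd55 at 0.26. The 6 early pairs ran from 0.16 to 0.44 with a median of 0.35. The committed pair of Icam1 and F3 was at 0.57, and the 8 pairs of an early with a committed marker ran from 0.35 to 0.66 with a median of 0.57, so the committed markers kept no closer ratio to each other than to the early ones. The widest of all 45 pairs was Pdgfra and F3 at 0.69.

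Candidates for likeness to a marker were the 9689 genes with a mean of at least 10 CPM over all 16 libraries. The 3 genes most like each marker, not all of which are reported here, were sought over 15 samples, where the difference between fractions weighs most. For Pdgfra they were the adhesion receptor gene Adgrd1 (SD of the log2 ratio 0.32), Abca6 (0.34) and the glypican Gpc6 (0.35). For Cd34 they were the transcription factor gene Zfp521 (0.22), Cadm3 (0.26) and Enpp3 (0.29), and for Thy1 the proteases Bmp1 (0.28), Mmp14 (0.29) and C1ra (0.29). Ly6a was closest to the TGF-beta co-receptor Tgfbr3 (0.30), P4ha1 (0.30) and the natriuretic peptide receptor Npr1 (0.31). None of these 12 genes was itself a marker of the set.

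Of the early markers, Dpp4 was closest to the glypican Gpc3 (0.33), the collagen gene Col14a1 (0.37) and Ms4a4d (0.37), and Pi16 to the enkephalin precursor Penk (0.46), Scg3 (0.48) and Scara5 (0.50). Cd55 was closest to Flt3l (0.33), Cdon (0.40) and Tmtc2 (0.41), and Anxa3 to Sept8 (0.20), Ankrd10 (0.21) and Kdelc2 (0.21). Genes close to F3 included the matrix protein gene Dpt (0.37) and Camk2n1 (0.40). Icam1 had the least close neighbours of the 10 by this SD, Stx11 (0.52), the histone demethylase Kdm6b (0.54) and Grasp (0.55). The SD of a ratio can grow with the spread of the marker itself. Over the 15 samples the SD of log2 CPM was 2.57 for Pi16, 1.83 for Cd34, 1.38 for Icam1 and 0.99 for Anxa3. The ratio values of different markers are therefore not directly comparable.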

How the data were processed

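The authors deposited raw read counts and FPKM values per Ensembl gene for 16 libraries, with gene coordinates on GRCm38. STAR 2.6.1d, DESeq2 1.20.0 and edgeR 3.24.3 with the builds mm10 and GRCm38 are named per the submitters' processing notes. How reads were counted, with which annotation and whether by strand, is not given in the sources used here, and overlapping genes and paralogs may therefore share reads. The deposited FPKM equalled count-based FPKM times 1 factor per library, so levels were scaled between libraries by the authors.

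Counts were fitted with edgeR 4.0.16 in R 4.3.3 (TMM, filterByExpr, robust quasi-likelihood F test, Benjamini-Hochberg adjustment over all genes tested at 0.05). Mature adipocytes were compared with preadipocytes over the high-fat libraries and diets over the preadipocyte libraries, both with stress as a covariate. Stress was tested within each fraction and as an interaction. The nearly identical control high-fat preadipocyte libraries 1 and 3 were summed into 1 sample for the fits and averaged for mean ± SD. DESeq2 1.42.0, limma 3.58.1 on log2(FPKM + 1) or log2(FPKM + 0.1), other scaling, no filter and leaving out each library were the alternatives. The fits were also run on simulated counts with the same fixed spread for every gene, which does not measure their power in these libraries. A ± after a log2 fold change is its SE.

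The main fits did not pair samples by replicate number. Deviations of same-numbered libraries correlated between fractions at -0.28 to 0.26 in stress and -0.08 to 0.10 in control libraries. Between stress and control, which are different mice, they correlated at -0.50 to 0.58. No pair of groups had every correlation over 0.1. Among high-fat libraries, control libraries 1 and 3 of both fractions held the highest urothelial and basal epithelial sums. These were 460 and 457 FPKM in preadipocytes and 135 and 66.5 FPKM in mature adipocytes. With 3 or 4 libraries a group, these values cannot tell whether same-numbered libraries came from the same animals. The members, lists and tests were chosen with earlier results of these data known. The text names the 10 markers, the 3 genes most like each, and, per pathway list in a comparison with calls, the 3 called genes of largest change and up to 2 uncalled ones. For the committed preadipocyte list, the 3 of largest change among those called lower were added. Precision is limited by 3 or 4 libraries a group, and low levels in mature adipocytes still rest on at least 67 counts per marker.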

Additional observations from a re-analysis of the deposited data

How the results depend on the processing

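All 10 markers stayed lower in mature adipocytes than in preadipocytes under the 25 alternatives, and all were called in each, except Icam1 with control libraries only, where 5998 genes were called in place of 10231. For stress in preadipocytes DESeq2 called 5 genes and the replicate block 2, in place of 0. For stress in mature adipocytes 51 genes were called with no low-count filter and 19 by DESeq2, and leaving out 1 library gave 0 to 9 (9 without control library 2). The interaction gave 2 calls by DESeq2. For diet, no filter gave 1 call, DESeq2 325, limma with a pseudocount of 0.1 gave 1, and leaving out 1 library gave 0 to 1 (1 without control high-fat preadipocyte library 4). No marker was among the calls of any stress, interaction or diet fit. The early minus committed gap between fractions was -2.14 without Anxa3. With the replicate block 10220 genes and 10 markers were called between fractions and no marker for stress. That fit kept control high-fat preadipocyte libraries 1 and 3 apart.

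Signs of uncalled markers turned under some settings, and the cause was not tested. For stress in preadipocytes Pdgfra was 0.026 and 0.027 with limma at pseudocounts of 1 and 0.1, 0.10 with the near-identical libraries apart and 0.17 with the replicate block, and Pi16 was -0.091 and -0.092 with limma at these pseudocounts and -0.11 with the block. For stress in mature adipocytes Cd34 was -0.020 with DESeq2-type size factors, -0.014 with DESeq2 and -0.0014 with limma at a pseudocount of 1, and Anxa3 was -0.043 and -0.049 with limma at pseudocounts of 1 and 0.1. Leaving out 1 library at a time gave, for stress in preadipocytes, -0.30 to 0.19 for Pdgfra, -0.43 to 0.21 for Pi16, -0.038 to 0.34 for Thy1 and -0.52 to 0.40 for F3. For stress in mature adipocytes it gave -0.56 to 0.50 for Cd34, -0.29 to 0.34 for Anxa3 and -0.74 to 0.29 for Pdgfra. For the interaction it gave -0.11 to 0.70 for Ly6a, -0.17 to 0.92 for Cd34, -0.15 to 0.50 for Anxa3, -0.91 to 0.11 for F3, -0.66 to 0.38 for Pdgfra and -0.037 to 0.51 for Dpp4. For diet it gave -0.40 to 0.66 for Icam1, whose sign turned without the stress low-fat library, and -0.54 to 0.034 for Ly6a, whose sign turned without the control low-fat library.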
